A study of Rattus norvegicus with 6 samples.

Results

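Iron enters cells through receptors and transporters, is stored inside ferritin and leaves through an exporter, and 10 genes of this traffic were followed in NRK-52E cells. They were chosen by name, as Scara5, Tfrc, Fth1, Ftl1, Slc40a1, Slc11a2, Slc39a14, Steap3, Ncoa4 and Ireb2. NRK-52E is an established line of wild-type epithelial cells from the rat kidney. The vehicle-treated group (Control) and the group given streptozotocin (STZ), an alkylating glucose analog, at 10 mM for 24 h each had 3 samples. Of the 18930 rows of the gene table, 11 carried one of these names, and they covered 9 of the 10 genes. Ftl1 named 3 rows, and Slc40a1, which encodes the iron exporter ferroportin, was not analysed here. The choice took in Scara5 because its RNA was known to be much lower with STZ, so the STZ-to-Control differences of all these genes are described here and not tested. Nothing measured in these samples is independent of that comparison.

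Cells take up iron bound to transferrin through the transferrin receptor, reduce it in the endosome and pass it to the cytosol through a metal transporter. Surplus iron is kept in ferritin, a shell of heavy chains that oxidise iron and light chains that help to lay down the mineral core. Iron regulatory proteins tie both ends together, since in iron-poor cells they protect the RNA of the transferrin receptor and hold back the translation of ferritin RNA. The proximal tubule also recovers filtered iron, and ferritin itself can be taken up through scavenger receptors. RNA counts measure neither iron nor protein.

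Total counts were between 10430924 and 15191349 per sample, and the scaling factors of edgeR's TMM method were between 0.988 and 1.02. Levels are given below as counts per 1000000 (CPM) after this scaling. CPM are not corrected for transcript length and are therefore compared between samples and not between genes. The common biological coefficient of variation between samples of a group was 3.25%. No source says whether the samples were separate cultures, so this spread may be technical. Of the 4 epithelial markers measured, Krt8 had 11691 to 24040 reads per sample and was higher with STZ (log2 fold change 0.48), Cdh1 had 16 to 35 reads and was lower (-0.69), and Krt18 and Cdh16 had no more than 4 reads. Of the 7 proximal tubule markers, Lrp2, Cubn, Slc34a1, Slc5a2 and Slc2a2 stayed at 10 reads or fewer per sample. Aqp1 had 66 to 167 reads and was lower with STZ (-1.25), and Ggt1 had 451 to 1220 reads and was higher (0.73). Leukocyte, endothelial and erythroid markers each summed to at most 2.11 CPM in any sample.

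Scara5 and Tfrc were lower and Ftl1, Fth1 and Steap3 higher in STZ-treated cells, while the differences of Slc11a2, Slc39a14, Ireb2 and Ncoa4 were within their standard errors or close to them. Of the 9 rows that passed edgeR's filter on low counts, 3 were higher and 2 lower at an adjusted p-value under 0.05 in the fit across all genes. Over all 11870 genes tested, 50.9% were past that threshold, 25.9% higher and 25.1% lower, so nothing is read from the count of these genes. The study also required an absolute log2 fold change over 1, which Ftl1 (higher) and Scara5 (lower) passed. Of all genes tested, 3.37% passed both thresholds, 2.26% higher and 1.11% lower. The groups did not overlap in 2 genes with STZ higher (Ftl1, Fth1) and 2 with STZ lower (Scara5, Tfrc), as they did not in 28.6% and 27.7% of all genes tested. The median log2 fold change of the 9 rows was -0.01, the same to this precision as the -0.01 of all genes tested.

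Scara5 encodes a class A scavenger receptor that binds ferritin and brings its iron into the cell. Its raw counts were 175, 185 and 183 reads in the Control samples and 64, 56 and 55 reads in the STZ samples. After scaling, these were 16.5, 16.8 and 14.3 CPM in Control and 4.65, 4.87 and 3.67 CPM in STZ. Every STZ sample lay far under every Control sample, and the spread inside each group was small beside the gap between them. The means were 15.9 ± 1.39 CPM in Control and 4.40 ± 0.638 CPM in STZ (SD, n = 3 each). The log2 fold change was -1.86 (standard error, SE, 0.13), a level 3.62-fold lower with STZ, and only 8 of the genes tested had a larger fall. In bulk RNA, fewer cells that express a gene and less RNA per cell cannot be told apart. The fibroblast markers tested, Col1a1, Col3a1 and Pdgfrb, were 3 of 3 lower at an adjusted p-value under 0.05. At this threshold, 25.1% of all genes tested were lower. The summed level of the 6 fibroblast markers measured was 99.6 to 111 CPM in Control and 56.1 to 66.7 CPM in STZ. The other fibroblast markers measured, Col1a2, Pdgfra and Lum, stayed at 4 reads or fewer per sample. The part of cells with fibroblast markers in the Scara5 difference was not tested. In the GRCr8 annotation of the rat the span of Scara5 overlaps a long non-coding RNA gene, and without a stated strand setting the reads of the pair may be mixed.

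Other class A scavenger receptors were scarce in these cells. Msr1, the macrophage scavenger receptor, had 0, 0 and 1 reads in Control and 1, 3 and 3 reads in STZ. Colec12 had at most 1 read in any sample. Neither passed the filter, and Marco and Scara3 were not analysed here. No other member of the receptor class could therefore be set beside the fall of Scara5 at this depth.

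Tfrc encodes the transferrin receptor, the main entry for transferrin-bound iron. Its levels were 457, 480 and 538 CPM in Control and 304, 288 and 306 CPM in STZ. The lowest Control sample was well above the highest STZ sample, and the STZ samples lay closer together than the Control samples. The means were 492 ± 41.8 CPM in Control and 299 ± 10.1 CPM in STZ (SD, n = 3 each). The log2 fold change was -0.72 (SE 0.04), a level 1.64-fold lower with STZ. Of the genes tested, 322 had a larger fall.

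Steap3 encodes the endosomal reductase that converts ferric to ferrous iron after transferrin has delivered it. Its levels were 22.7, 20.01 and 18.1 CPM in Control and 26.2, 24.5 and 22.5 CPM in STZ. The highest Control sample lay just above the lowest STZ sample, so the groups overlapped. The log2 fold change was 0.27 (SE 0.09). It was 0.19 without Control replicate 3 and 0.22 without STZ replicate 1, and in these 2 of the 6 fits with one sample left out it was no longer past the adjusted p-value threshold.

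RefSeq promoter sequences of build GRCr8 were matched for 6 of the 10 genes by symbol. Those of Tfrc and Steap3 are shown because these genes of the transferrin cycle differed in opposite directions. Each sequence is the 250 bases before the annotated start, read 5′ to 3′ on the minus strand, which is the strand of both genes. The Tfrc window lies at chr11:81690319-81690568 and the Steap3 window at chr13:33944357-33944606. Capitals mark matches to ACGTG, the core of hypoxia response elements, or to TGACNNNGC, the core of antioxidant response elements, each searched on both strands.
Tfrc: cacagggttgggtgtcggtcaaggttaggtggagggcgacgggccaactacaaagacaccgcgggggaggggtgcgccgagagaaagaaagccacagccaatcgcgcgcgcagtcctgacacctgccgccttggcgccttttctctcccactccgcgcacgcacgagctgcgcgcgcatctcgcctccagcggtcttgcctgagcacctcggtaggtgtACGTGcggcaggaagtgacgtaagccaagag
Steap3: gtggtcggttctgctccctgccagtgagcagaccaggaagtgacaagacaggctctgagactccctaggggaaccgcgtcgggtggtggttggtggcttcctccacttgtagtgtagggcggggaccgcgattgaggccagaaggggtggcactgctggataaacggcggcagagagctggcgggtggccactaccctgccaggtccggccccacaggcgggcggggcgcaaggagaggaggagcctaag
The Tfrc window held 1 match to ACGTG and no match to TGACNNNGC, and the Steap3 window held neither. Among the other genes with an entry, Ncoa4 held 1 match to each, and Slc11a2, Ireb2 and Slc40a1 held none. Of 33469 promoter windows of this length in the table, 16.6% held ACGTG and 10.1% held TGACNNNGC. No match to one pattern overlapped a match to the other in these genes. A match is a string of letters and not a shown binding site.

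Slc11a2 encodes DMT1, which carries ferrous iron out of the endosome and across the apical membrane. Its levels were 88.1, 95.3 and 97.9 CPM in Control and 85.3, 94.0 and 91.2 CPM in STZ. The groups overlapped, and the log2 fold change was -0.06 (SE 0.05). Slc39a14 encodes ZIP14, a carrier of iron that is not bound to transferrin. It had 30.5, 33.4 and 36.5 CPM in Control and 36.4, 31.1 and 31.4 CPM in STZ. Again the groups overlapped, with a log2 fold change of -0.02 (SE 0.07). In Slc11a2 the direction was the same in every alternative run, whereas in Slc39a14 it depended on which sample was left out. The span of Slc11a2 overlaps a long non-coding RNA gene in GRCr8.

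**Figure D1:**
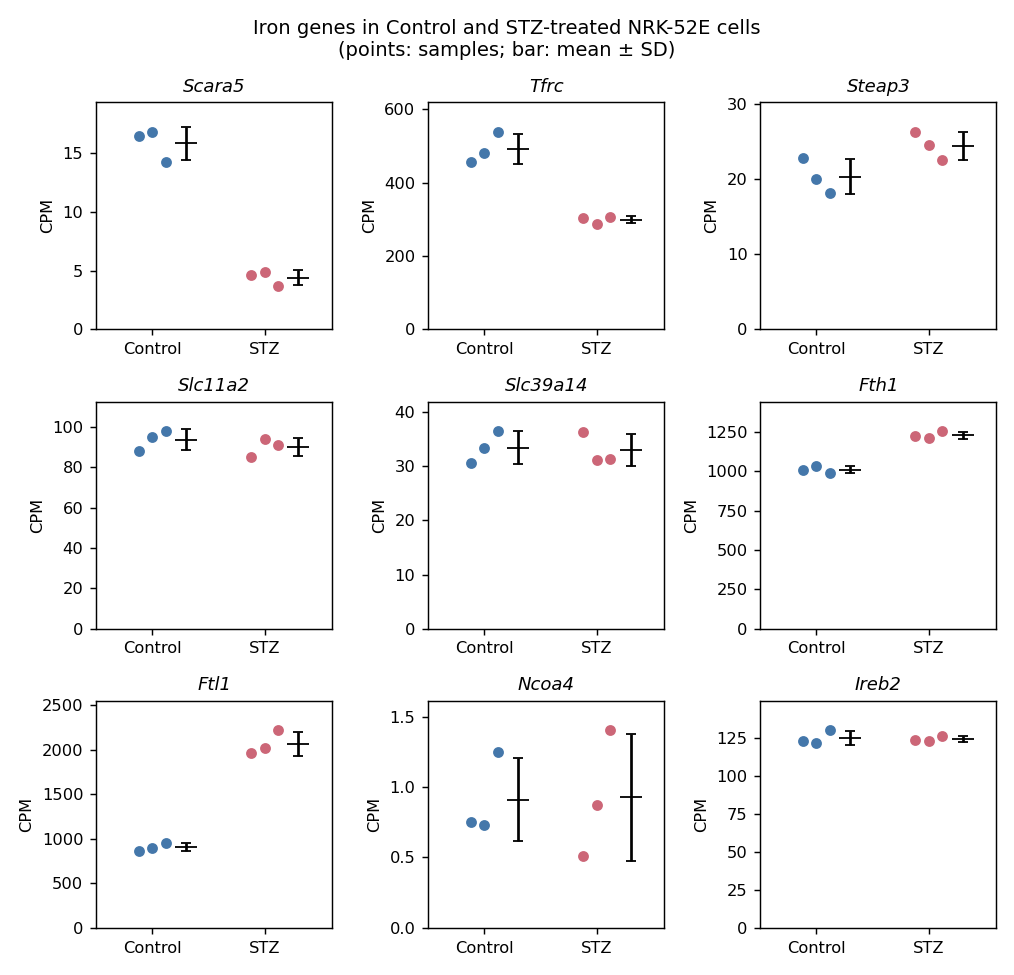
Levels of the 9 iron genes that passed the filter, in CPM on linear axes that start at 0, for 3 Control (blue) and 3 STZ (red) samples, with the mean ± SD as a black bar. The groups are apart for Scara5, Tfrc, Fth1 and Ftl1 and overlap for Steap3, Slc11a2, Slc39a14, Ncoa4 and Ireb2.

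The ferritin subunits were both higher with STZ, the light chain by much more than the heavy chain. Ftl1, the light chain, had 867, 898 and 957 CPM in Control and 1965, 2014 and 2214 CPM in STZ. The lowest STZ sample was far above the highest Control sample. The means were 908 ± 45.6 CPM in Control and 2064 ± 132 CPM in STZ (SD, n = 3 each). The log2 fold change was 1.19 (SE 0.04), a level 2.27-fold higher, and 189 of the genes tested had a larger rise. The other rows named Ftl1 held no more than 8 and 5 reads per sample and did not pass the filter.

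Fth1, the heavy chain, had 1009, 1032 and 989 CPM in Control and 1222, 1210 and 1254 CPM in STZ. These groups did not overlap either, and the samples of each lay close together. The means were 1010 ± 21.4 CPM in Control and 1229 ± 22.4 CPM in STZ (SD, n = 3 each), with a log2 fold change of 0.28 (SE 0.03). Ferritin genes have many processed copies in mammalian genomes, and only uniquely mapped reads were counted. How the reads of such copies enter these values was not tested.

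Counts of 2 genes in the same library do not depend on its scaling, so the reads of Ftl1 were divided by those of Fth1. This ratio, not corrected for transcript length, was 0.860, 0.871 and 0.968 in Control and 1.61, 1.66 and 1.77 in STZ. It was higher in each STZ sample than in any Control sample. The means were 0.899 ± 0.0596 and 1.68 ± 0.0798 (SD, n = 3 each). Reads of Ftl1 per read of Tfrc were 1.90, 1.87 and 1.78 in the Control samples and between 6.47 and 7.22 in the STZ samples. Reads of Fth1 per read of Tfrc were 2.21, 2.15 and 1.84 in Control and 4.02, 4.21 and 4.09 in STZ. The ferritin RNAs and Tfrc thus stood in a different proportion in the treated cells, whichever scaling is used.

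Ncoa4 encodes the receptor that delivers ferritin to autophagosomes, so that its iron can be released. Its row held few reads, 8, 8 and 16 in Control and 7, 10 and 21 in STZ. The log2 fold change of 0.02 had a standard error of 0.39, so a change of moderate size was not detectable from these reads. In GRCr8 the span of Ncoa4 overlaps the protein-coding gene Pargl1, and reads that map to more than one place were not counted. Of the rows of the table, 2871 carried only an Ensembl identifier and were not matched to symbols, so reads of this gene may also stand in another row. The part of each in the low count was not tested.

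Ireb2 encodes iron regulatory protein 2, which binds the iron-responsive elements of Tfrc and ferritin RNA. It had 123, 122 and 130 CPM in Control and 124, 123 and 126 CPM in STZ. The groups overlapped almost fully, and the log2 fold change was -0.01 (SE 0.04).

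**Figure D2:**
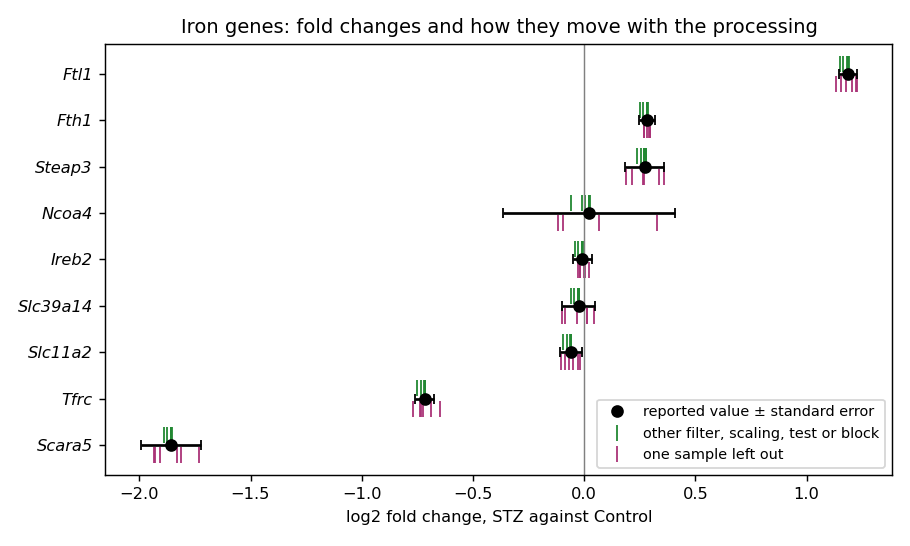
Log2 fold changes of the iron genes, STZ against Control (black points, bars are the standard error), with the values from other filters, scalings, tests and the block (green) and from leaving out one sample (purple). Scara5 and Tfrc stay left of 0 and Ftl1, Fth1 and Steap3 right of 0 in all of them, while Slc39a14, Ireb2 and Ncoa4 fall on both sides.

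The other genes of iron handling were taken from lists of textbook roles, and p-values of edgeR's quasi-likelihood test were adjusted over all 11870 genes by the Benjamini-Hochberg method. A gene counted as changed at an adjusted p-value under 0.05, the threshold that 50.9% of all genes passed. Medians of the lists are log2 fold changes and stand beside the -0.01 of all genes tested. Where a gene is marked as named later, it was chosen after its values were seen.

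Among 8 other iron uptake genes tested, 2 rose, 1 fell and 5 did not pass the test, with a median of 0.07. Steap1, a metalloreductase related to Steap3, had 22.1, 24.7 and 25.7 CPM in Control and 31.9, 28.6 and 34.3 CPM in STZ. All STZ samples were above all Control samples, and the log2 fold change was 0.39 (SE 0.08, edgeR adjusted p = 6e-05). Steap2, named later, also rose, with a log2 fold change of 0.25 (SE 0.06, edgeR adjusted p = 3.4e-04). Tf, which encodes transferrin itself, had 81.9, 85.3 and 89.4 CPM in Control and 73.6, 80.1 and 73.4 CPM in STZ. It fell, with a log2 fold change of -0.18 (SE 0.05, edgeR adjusted p = 2.8e-03). Slc39a8, Mcoln1, Cubn and Lrp2, with 10 reads or fewer per sample, were not tested, and Steap4 was not analysed here.

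Tfr2, named later, encodes the second transferrin receptor, which takes part in iron sensing. It had no read in any Control sample and 6, 6 and 8 reads in the STZ samples. These reads were too few for the filter. Set against a limit of 3 counts over the Control group, its pooled STZ level of 0.497 CPM was 5.70-fold higher. This value makes no allowance for the error of the few STZ reads, so it is not a lower bound. With no filter it passed edgeR's quasi-likelihood test over 18930 genes (adjusted p = 2.2e-04). In these samples Tfr2 was higher and Tfrc lower with STZ, from very unequal read numbers. Because Tfr2 was chosen after its values were seen, its p-value is a description only.

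Among 9 genes of iron sensing and iron chaperones, 3 rose, 3 fell and 3 did not pass the test, with a median of 0.05. Glrx3, a glutaredoxin that hands on iron-sulfur clusters, had 122, 133 and 115 CPM in Control and 179, 171 and 179 CPM in STZ. Its groups were well apart, and it rose by a log2 fold change of 0.52 (SE 0.05, edgeR adjusted p = 1.1e-12). Bola2, the partner of Glrx3, rose too (named later, log2 fold change 0.35, SE 0.06). The poly(C)-binding proteins carry cytosolic iron to ferritin. Pcbp2 had 343, 323 and 338 CPM in Control and 249, 255 and 261 CPM in STZ. Its log2 fold change was -0.39 (SE 0.04, edgeR adjusted p = 1.4e-11), and that of Pcbp1, named later, was -0.35 (SE 0.04). Both chaperone RNAs thus fell while both ferritin RNAs were higher. Aco1, named later, which is iron regulatory protein 1 when it lacks its cluster, fell, with a log2 fold change of -0.22 (SE 0.05, edgeR adjusted p = 1.9e-04). The ligase subunits Fbxl5, Skp1 and Cul1, which remove iron regulatory protein 2, did not pass the test.

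Among 5 genes of iron export and hepcidin control tested, 1 rose, 2 fell and 2 did not pass the test, with a median of 0.23. App, the amyloid precursor protein, which has been linked to ferroportin, had 791, 780 and 776 CPM in Control and 965, 951 and 949 CPM in STZ. Its log2 fold change was 0.29 (SE 0.03, edgeR adjusted p = 2.1e-09). Flvcr1, described as a heme exporter, had 38.0, 34.1 and 36.0 CPM in Control and 32.9, 32.0 and 30.8 CPM in STZ. Its log2 fold change of -0.18 (SE 0.07, edgeR adjusted p = 0.029) was past the threshold by little. It was no longer past it by DESeq2 (adjusted p = 0.095), or without Control replicate 1 (-0.14), Control replicate 3 (-0.18), STZ replicate 2 (-0.18) or STZ replicate 3 (-0.15). Tmprss6, named later, had means of 1.38 CPM in Control and 0.792 CPM in STZ at 22 reads or fewer per sample, and its groups overlapped. Its log2 fold change of -0.84 was just past the threshold (edgeR adjusted p = 0.049). It was no longer past it in 7 of 14 alternatives, namely with no filter, by DESeq2 or limma-voom, and without Control replicate 1 (-0.74), Control replicate 3 (-0.64), STZ replicate 1 (-0.87) or STZ replicate 3 (-0.60). The count of 3 changed genes in this list was 1 without Control replicate 3 or without STZ replicate 3. The ferroxidases Heph and Hephl1 had at most 5 reads in any sample. Hamp, which encodes hepcidin, and its co-receptor Hjv had at most 3 reads.

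Among 14 genes of heme synthesis and breakdown tested, 6 rose, 3 fell and 5 did not pass the test, with a median of 0.07. Hmox1, the inducible heme oxygenase that frees iron from heme, was the 1 gene of the 6 lists past both thresholds. It had 12.1, 13.6 and 12.5 CPM in Control and 41.1, 44.2 and 45.8 CPM in STZ. The groups were far apart, with little spread inside either. The log2 fold change was 1.78 (SE 0.08, edgeR adjusted p = 4.7e-22), a level 3.44-fold higher. Hmox2, the constitutive enzyme, had a log2 fold change of 0.07 (SE 0.05) and did not pass the test (named later). Of the biliverdin reductases, Blvrb rose by 0.18 on the log2 scale, while Blvra (-0.06, SE 0.06) did not pass the test (both named later). Along the synthesis pathway, with genes named later, Alas1, Alad and Cpox rose by 0.44, 0.23 and 0.24 on the log2 scale. Uros fell, with a log2 fold change of -0.57. Urod and Fech did not pass the test. These enzymes hence did not move in one direction.

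Among 27 genes of mitochondrial iron and iron-sulfur clusters tested, 7 rose, 7 fell and 13 did not pass the test, with a median of 0.00. With library size as the only scaling or with the upper quartile, 6 rose and 9 fell. Hspa9, a chaperone of cluster transfer, had 307, 306 and 310 CPM in Control and 353, 344 and 357 CPM in STZ, a log2 fold change of 0.19 (SE 0.04, edgeR adjusted p = 2.8e-05). Nfs1, the cysteine desulfurase that supplies the sulfur, had 70.3, 62.8 and 67.0 CPM in Control and 46.5, 50.2 and 51.2 CPM in STZ. It fell, with a log2 fold change of -0.44 (SE 0.06, edgeR adjusted p = 2.7e-08). Nfs1 works in one complex with Lyrm4 and the scaffold Iscu, a grouping made after the values were seen. Lyrm4 and Iscu also fell, with log2 fold changes of -0.39 and -0.26 (edgeR adjusted p-values 1.2e-03 and 2e-04). Genes that act after this step, among them Isca2, Bola3, Ciapin1, Ciao1 and Ciao3, rose by 0.20 to 0.36 on the log2 scale (named later). The mitochondrial transporter Abcb8 fell, with a log2 fold change of -0.33 (named later).

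**Figure D3:**
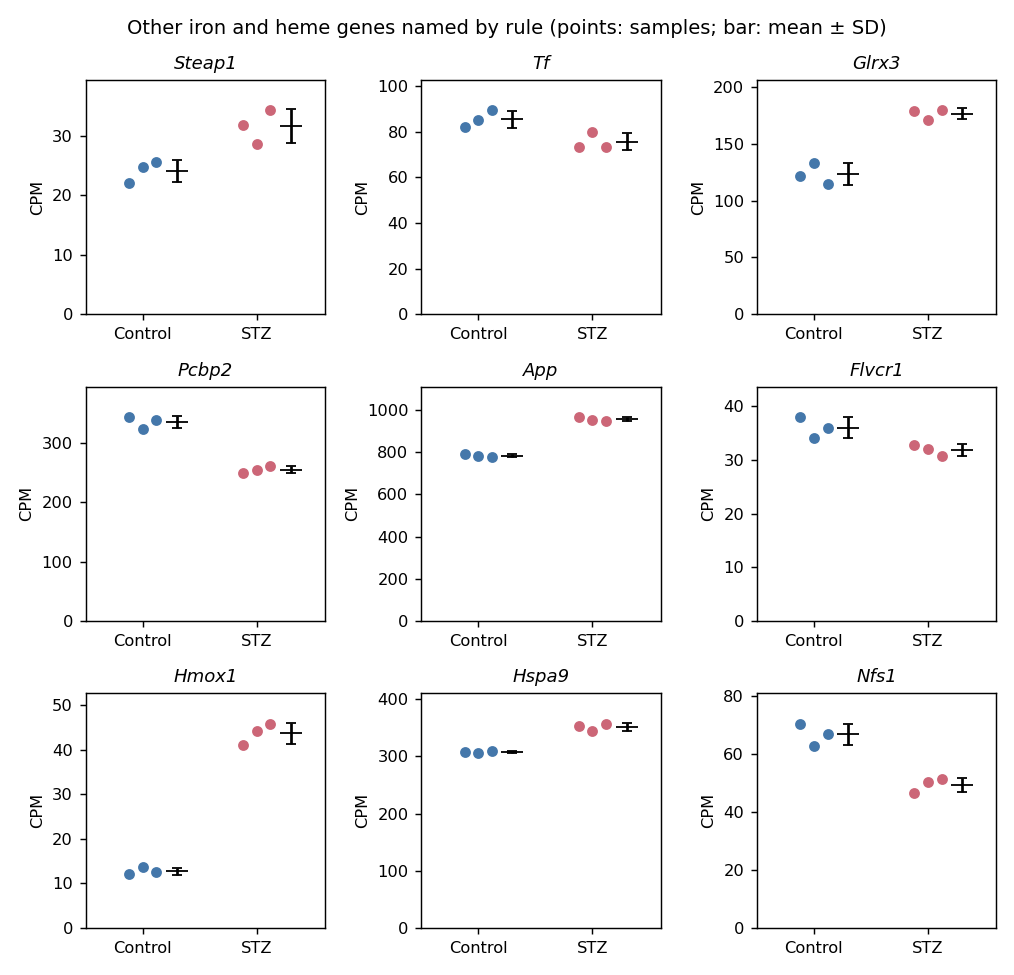
Levels in CPM, on linear axes that start at 0, of 9 genes that the naming rule took from the other iron and heme lists, for 3 Control (blue) and 3 STZ (red) samples, with the mean ± SD as a black bar. The STZ and Control samples are apart for each of these 9 genes, by the largest fold for Hmox1.

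**Figure D4:**
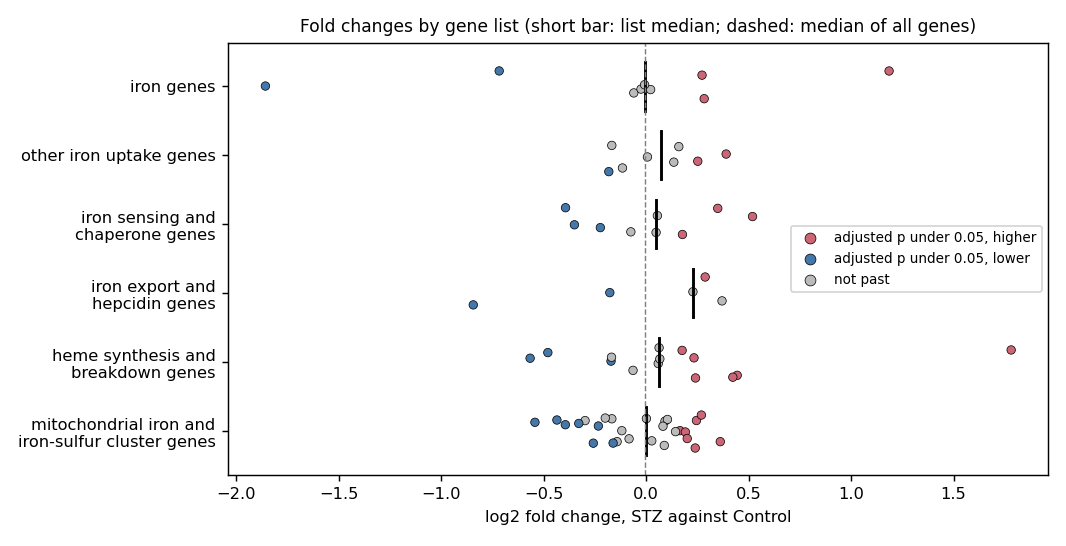
Log2 fold changes, STZ against Control, of the iron genes and of the genes tested in 5 other lists, coloured by the adjusted p-value, with the median of each list (short bar) and of all genes (dashed line). Each list has genes on both sides of 0, and Scara5 (-1.86), Hmox1 (1.78) and Ftl1 (1.19) lie farthest out.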

How the data were processed

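RNA of NRK-52E cells treated with STZ (3 samples) or vehicle (3 samples) was sequenced as 100-bp single-end reads from TruSeq stranded mRNA libraries. Reads were aligned by the authors with STAR 2.7.10a to rat genome Rnor6, those mapped uniquely were counted with featureCounts, and the raw counts per gene were deposited. The strand setting is not given in the sources used here. All 6 columns were matched to samples by their titles.

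Using R 4.3.3 and edgeR 4.0.16, low counts were filtered (filterByExpr), libraries were scaled by TMM, and 11870 genes were compared by the quasi-likelihood method, with p-values adjusted by Benjamini-Hochberg. CPM are counts over TMM-scaled library sizes of the filtered genes. Standard errors are the absolute log2 fold change over the square root of F. Steps were tested on simulated data. No permutation test is given for single genes, because 3 samples per group allow no exact p (two-sided) under 0.1.

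The genes and lists were chosen with earlier results of these data known. Named genes are the chosen genes and, from 6 other lists, those past both thresholds, the smallest p in each direction, or the highest counts where none passed. The 9 alternatives were other filters, scalings and tests (DESeq2 1.42.0, limma 3.58.1 voom, a likelihood ratio test) and the replicate number as a block, besides leaving out each of the 6 samples. Gene names of overlaps and promoters came from RefSeq (GRCr8). Values of some single genes are left out of the text, though they enter the counts.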

Additional observations from a re-analysis of the deposited data

How the results depend on the processing

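Leaving out one sample gave log2 fold changes of -1.93 to -1.73 for Scara5, -0.77 to -0.65 for Tfrc, 1.13 to 1.23 for Ftl1 and 0.27 to 0.30 for Fth1, as a description with no test. It gave 0.19 to 0.36 for Steap3, -0.100 to 0.0459 for Slc39a14, -0.0264 to 0.0225 for Ireb2 and -0.12 to 0.33 for Ncoa4. Ncoa4 was -0.0110 with library size only and -0.0588 with limma-voom. With at least 10 counts in every sample, 249 of 11297 genes tested passed both thresholds, against 400 of 11870. The reason for this difference was not tested. Genes of iron export and hepcidin past the adjusted p-value numbered 1 by DESeq2 and 1 to 3 with one sample left out, against 3. By DESeq2, Flvcr1 (adjusted p = 0.095) and Tmprss6 (adjusted p = 0.17) were no longer past it. Why these genes moved was not tested. Of 150 refits of the other named genes, 145 kept direction and side, and the other 5 were of Flvcr1. Chosen later, Tmprss6 was past the adjusted p-value in 7 of 14 alternatives. Control and STZ samples share replicate numbers, and the deviations of same-numbered samples correlated at 0.0329, -0.0366 and 0.109. With 3 samples per group, these values cannot show whether same-numbered samples were handled together. With the replicate block, 398 genes passed both thresholds and 5 of the 9 iron genes tested passed the adjusted p-value, as without it. No scaling moved the median of all genes beyond -0.04. Low read numbers limit Tfr2 and the scavenger receptors.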
